A study of Oryctolagus cuniculus with 35 samples.

Results

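PINK1, PPRC1, TWNK and MIEF1 are nuclear genes whose proteins act in or for mitochondria, and they were followed here in rabbit lung messenger RNA through pneumonia, mechanical ventilation and treatment. They were taken by symbol, and each symbol stood on 1 of the 23669 gene rows of each deposited table (ENSOCUG00000006306, ENSOCUG00000000510, ENSOCUG00000002746 and ENSOCUG00000012850 in that order). All 4 genes passed the filter on low values in every comparison. The 35 New Zealand rabbits form 5 groups of 7, with 1 lung library per rabbit. The ceftaroline+MSC, ceftaroline, MSC and NaCl groups all had pneumococcal pneumonia together with adverse mechanical ventilation, so infection and ventilation are never separated in this design. At 4 h after inoculation the ceftaroline+MSC group received both treatments, the ceftaroline group the cephalosporin ceftaroline-fosamil alone (20 mg/kg into muscle), the MSC group mesenchymal stromal cells of human umbilical cord alone (into a vein), and the NaCl group saline. The healthy group received NaCl only. The lungs of the 4 pneumonia groups come from autopsies at 24 h, or earlier where a rabbit had died, so time since inoculation can differ within a group. No autopsy hour was recorded here for the healthy group. Which rabbits died early, and their ages, were not analysed here.

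Mitochondria are kept in working order by the removal of damaged organelles, by fission and fusion of the network, and by new synthesis of mitochondrial DNA and proteins. PINK1 is the kinase that accumulates on depolarised mitochondria and, with parkin, marks them for mitophagy. PPRC1 is a PGC-1-related coactivator that is induced quickly when cells are stimulated to grow and that works with NRF1 on nuclear genes of mitochondria. TWNK is the helicase Twinkle, which unwinds mitochondrial DNA for its replication. MIEF1, also called MiD51, is an outer-membrane receptor that recruits the fission GTPase DRP1. These roles are known mainly from human and mouse.

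The libraries held 7567008 to 33209729 recovered reads, with a median of 11137017, and between 176 and 19132 of them fell on each of the 4 genes. Sample titles of 5 healthy, 3 NaCl and 2 MSC libraries end in PD or PG, with no meaning given, and no title of the other groups does. PD stands on healthy libraries only, and the sole healthy title in PG is that of replicate 6. PD and PG were treated as 1 mark wherever the ending was used. A second mark of unknown meaning, S00, is on all 7 healthy libraries and on 1 of the 28 pneumonia libraries (NaCl replicate 2), so it cannot be told apart from pneumonia against health. Values within libraries with and without a title ending are given beside the results. Healthy replicates 6 and 7 are titled D5PG and D7PD, and ceftaroline replicates 5 and 7 are titled D5 and D7. Title letters also change with the ending, from B to I or L in NaCl and from C to N in MSC. What these letters mean is not stated, and each library was treated as 1 rabbit. Markers of several lung cell types differed between NaCl and healthy lungs. All 5 tested neutrophil markers rose, with a summed level of 14904 to 139927 CPM (reads per gene scaled to library size, as below) in NaCl lungs and 1295 to 9928 in healthy lungs, and CSF3R and MMP9 were listed at 0 throughout. MPO did not pass the filter, with mean normalised reads of 12.7 in NaCl and 15.5 in healthy lungs. The sum mostly follows S100A8 and S100A9, with NaCl means of 237809 and 436741 normalised reads, against 15188 for CAMP, the next highest. All 3 tested markers of alveolar type II cells fell, with 1133 to 8142 CPM in NaCl and 9173 to 16344 in healthy lungs, and SFTPC, SFTPD and ABCA3 were listed at 0. All 5 tested markers of alveolar type I cells fell, with 2545 to 9505 in NaCl and 11991 to 16302 in healthy lungs. AQP5 was not tested, with mean normalised reads of 0.55 in NaCl and 0.26 in healthy lungs. Macrophage markers rose for 5 of 6, and fibroblast markers fell for 5 of 6. The lungs are bulk samples, so fewer cells of a type and less RNA per cell cannot be told apart, and the part of these shifts in the results on the 4 genes was not tested.

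Levels were set on 1 scale over all 35 libraries as CPM, scaled by TMM (a correction for library composition). They are not divided by transcript length, so they compare groups for a gene and not genes with each other. PINK1 had 177 to 482 CPM with a median of 214 in ceftaroline+MSC lungs, 121 to 328 with a median of 159.6 in ceftaroline lungs, 117 to 420.1 with a median of 188 in MSC lungs, 95.04 to 286 with a median of 158 in NaCl lungs, and 489 to 836 with a median of 634 in healthy lungs. Every pneumonia library lay below every healthy one, and the pneumonia groups overlapped each other. The nearest approach was the ceftaroline+MSC lung called replicate 3, at 482 against the lowest healthy value of 489. By their medians the groups ran upwards from NaCl through ceftaroline, MSC and ceftaroline+MSC to healthy, and only the last of these steps passed a test between neighbours.

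PPRC1 showed the opposite order. It had 37.3 to 85.5 CPM with a median of 58.4 in ceftaroline+MSC lungs, 46.8 to 79.6 with a median of 67.3 in ceftaroline lungs, 33.8 to 122.7 with a median of 67.1 in MSC lungs, 44.2 to 181 with a median of 97.9 in NaCl lungs, and 25.7 to 31.7 with a median of 30.8 in healthy lungs. All pneumonia libraries lay above all healthy ones. The coactivator was nearly level among healthy lungs, with a coefficient of variation of 7.93%, and varied widely among NaCl lungs, with 40.8%. For PINK1 the same measure was 42.9% to 49.1% in the 4 pneumonia groups and 17.3% in healthy lungs.

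TWNK, the mitochondrial DNA helicase, had 19.96 to 33.2 CPM with a median of 28.5 in ceftaroline+MSC lungs, 20.1 to 42.9 with a median of 31.3 in ceftaroline lungs, 22.3 to 47.3 with a median of 32.5 in MSC lungs, 29.8 to 63.4 with a median of 46.8 in NaCl lungs, and 18.9 to 28.4 with a median of 23.8 in healthy lungs. Only the NaCl group was separate from the healthy one, and each treated group overlapped both. MIEF1, the fission receptor, had 436 to 1017 CPM with a median of 694 in ceftaroline+MSC lungs, 295 to 764 with a median of 626 in ceftaroline lungs, 305 to 821 with a median of 469 in MSC lungs, 585 to 1224 with a median of 768 in NaCl lungs, and 306 to 550.2 with a median of 404 in healthy lungs. The ceftaroline+MSC lungs split for MIEF1, with 3 libraries between 991 and 1017 and 3 (replicates 3, 5 and 6) between 436 and 528. The same 3 libraries had alveolar type II marker sums of 12520 to 13390 CPM, against 1107 to 4887 in the other 4, and neutrophil sums of 1434 to 3023, against 10400 to 47080. The part of these markers in the split was not tested. No neighbours in the order of the group medians of TWNK or MIEF1 passed a test.

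**Figure D1:**
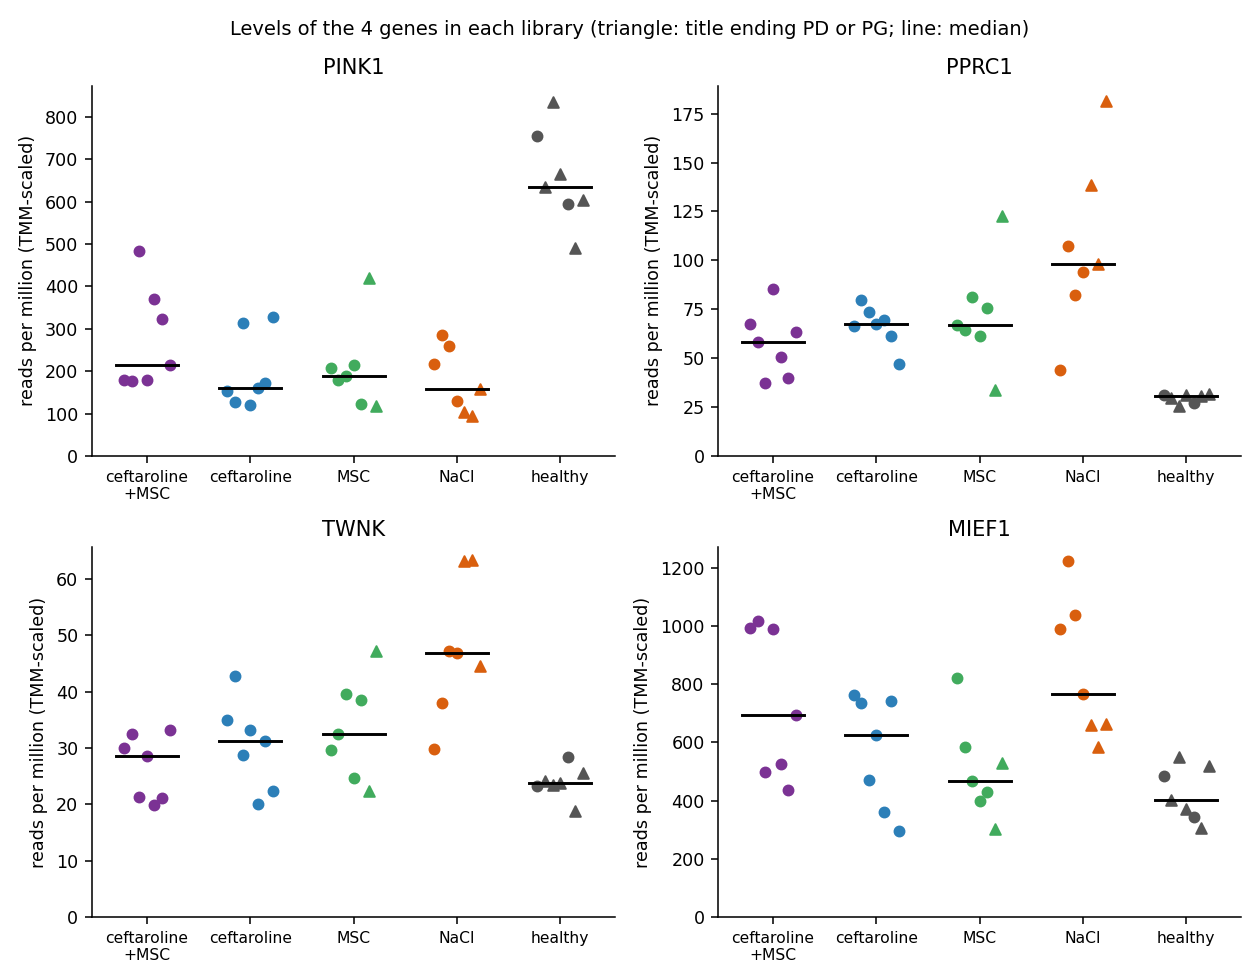
Levels of the 4 genes in CPM (TMM-scaled, linear axis from 0) for each of the 35 libraries, by group; triangles mark libraries whose title ends in PD or PG and lines are group medians. PINK1 is lower and PPRC1 higher in every pneumonia library than in every healthy one, while for TWNK and MIEF1 only the NaCl group lies clear of the healthy group.

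Pneumonia with ventilation was set against health to ask what injury does to lung transcripts, and all 4 genes were called, at a background of 60.6% of the 9545 genes tested (limma on log2 of the deposited normalised reads plus 1, Benjamini-Hochberg adjusted p under 0.05). PINK1 fell in NaCl lungs to 26.1% of its healthy level (log2 fold change -1.94, SE 0.24, limma adjusted p = 6.0e-06). PPRC1 rose 3.42-fold (log2 fold change 1.77, SE 0.23, adjusted p = 1.1e-05). TWNK rose by 0.99 (SE 0.17, adjusted p = 0.00012) and MIEF1 by 1.01 (SE 0.19, adjusted p = 0.00031). In each of the 4 genes the 7 NaCl libraries did not overlap the 7 healthy ones, which was so for 29.9% of all genes. Ranked by the size of their fold changes, PINK1 and PPRC1 stood within the top 12.1% and 14.9% of the genes tested, and TWNK and MIEF1 within the top 37.2% and 36.4%.

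Between libraries without the ending (4 NaCl and 2 healthy), PINK1 differed by -1.60, PPRC1 by 1.47, TWNK by 0.67 and MIEF1 by 1.32. Between libraries with the ending (3 NaCl and 5 healthy), the values were -2.42, 2.22, 1.32 and 0.64. The NaCl libraries there end in PG and the healthy ones in PD except replicate 6, so the kind of ending was not held constant. TWNK missed the threshold without the ending (limma, adjusted p = 0.078), and the other 3 genes passed in each set of libraries. The values of PINK1, PPRC1 and TWNK were thus larger with the ending and that of MIEF1 smaller. The difference between the sets was tested as an interaction over all genes, and none of the 4 passed (limma, adjusted p = 0.18 to 0.25), at a background of 9.69% of genes called.

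Pathway lists around the 4 genes moved in mixed directions in pneumonia, where 29.7% of all genes tested were called higher and 30.9% lower, with a median log2 fold change of 0.00 over all genes. The lists held 38 symbols of mitophagy, 27 of fission and fusion, 28 biogenesis regulators, 32 of mitochondrial DNA and 28 chaperones and proteases. Of these, 19, 17, 21, 17 and 9 were found with reads, so counts and medians cover only part of each list. Of 19 tested genes of mitophagy, 6 rose and 3 fell, with a median of 0.16. PINK1 had the lowest p of those that fell, followed by AMBRA1, an autophagy scaffold (-0.61, SE 0.13, adjusted p = 0.00079), and NBR1, an autophagy receptor (-0.51, SE 0.15, adjusted p = 0.0080). Those that rose with the lowest p were CSNK2A1, a catalytic subunit of casein kinase 2 (0.87, SE 0.13, adjusted p = 2.7e-05), USP15, a deubiquitinase that opposes parkin (0.80, SE 0.16, adjusted p = 0.00042), and TBC1D15, a Rab GTPase-activating protein at mitochondria (0.86, SE 0.17, adjusted p = 0.00048). The receptors OPTN (0.33, adjusted p = 0.092) and BNIP3L (-0.10, adjusted p = 0.84) were not called.

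Of 16 tested genes of fission and fusion, 6 rose and 4 fell, with a median of 0.32. Beside MIEF1, YME1L1, a protease that cleaves OPA1, rose by 0.87 (SE 0.14, adjusted p = 6.9e-05) and MFN1, a GTPase of outer-membrane fusion, rose by 0.66 (SE 0.13, adjusted p = 0.00047). CHCHD6 and IMMT, of the complex that shapes the cristae, fell by 1.30 (SE 0.22, adjusted p = 9.2e-05) and 0.50 (SE 0.15, adjusted p = 0.0077), and MIGA1, which promotes fusion, by 1.34 (SE 0.37, adjusted p = 0.0051). DNM1L, which encodes DRP1 itself, had 0.33 (SE 0.16, adjusted p = 0.089) and was not called.

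The list with PPRC1, regulators of mitochondrial biogenesis, had 16 tested genes, of which 11 rose and 3 fell, with a median of 0.61. The 3 became 5 with no filter on low values, with DESeq2 and in the fit over 35 libraries. The 11 became 6 at an adjusted p under 0.01. ESRRG (mean normalised reads 2.2 in NaCl and 22.7 in healthy lungs) and PPARGC1A (4.2 and 7.8) did not pass the filter and were not tested. CREB1, a transcription factor of cyclic AMP signalling, rose by 1.73 (SE 0.23, adjusted p = 1.0e-05) and MYC, a growth-related transcription factor, by 2.17 (SE 0.30, adjusted p = 1.9e-05). NRF1, the DNA-binding partner of PPRC1, rose by 0.44 (SE 0.15, adjusted p = 0.023), while the related coactivator PPARGC1B had 0.29 (SE 0.31, adjusted p = 0.42). PRKAG1 and PRKAB1, regulatory subunits of AMP-activated kinase, fell by 0.95 (SE 0.15, adjusted p = 6.3e-05) and 0.68 (SE 0.17, adjusted p = 0.0027), and NCOR1, a corepressor, by 0.73 (SE 0.12, adjusted p = 0.00011).

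Of 17 tested genes of mitochondrial DNA maintenance and transcription, 6 rose and 2 fell, with a median of 0.26. The 2 became 4 without healthy replicate 5, NaCl replicate 1 or NaCl replicate 3, and also on the CPM scale. Beside TWNK, the lowest p among those that rose belonged to SLC25A33, a mitochondrial carrier of pyrimidine nucleotides (1.84, SE 0.14, adjusted p = 7.9e-08), SAMHD1, which degrades deoxynucleotides and is also an antiviral factor of myeloid cells (2.87, SE 0.24, adjusted p = 1.5e-07), and MTERF3 (1.204, SE 0.13, adjusted p = 1.6e-06), which restrains mitochondrial transcription in mouse. MTERF2 fell by 0.89 (SE 0.23, adjusted p = 0.0038), and MGME1, a mitochondrial exonuclease, by 0.87 (SE 0.23, adjusted p = 0.0045). TFAM, which packages mitochondrial DNA, had 0.49 (SE 0.22, adjusted p = 0.068) and was not called. Of 9 tested chaperones and proteases, 4 rose and 3 fell, with a median of 0.12, led by HSPA9, the mitochondrial HSP70, which rose by 1.66 (SE 0.15, adjusted p = 2.8e-07). YME1L1, already named, and LACTB (0.81, SE 0.15, adjusted p = 0.00025) also rose. The import-related genes DNAJC19 (-0.88, SE 0.18, adjusted p = 0.0006) and IMMP1L (-0.87, SE 0.17, adjusted p = 0.00035) fell, as did PMPCB, a subunit of the protease that trims imported proteins (-0.41, SE 0.10, adjusted p = 0.0029). Between libraries without a title ending fewer genes were called, 3650 of all genes, and the counts that rose and fell were 3 and 4 for mitophagy, 2 and 1 for fission and fusion, 5 and 3 for biogenesis regulators, 3 and 0 for mitochondrial DNA, and 3 and 0 for chaperones and proteases.

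**Figure D2:**
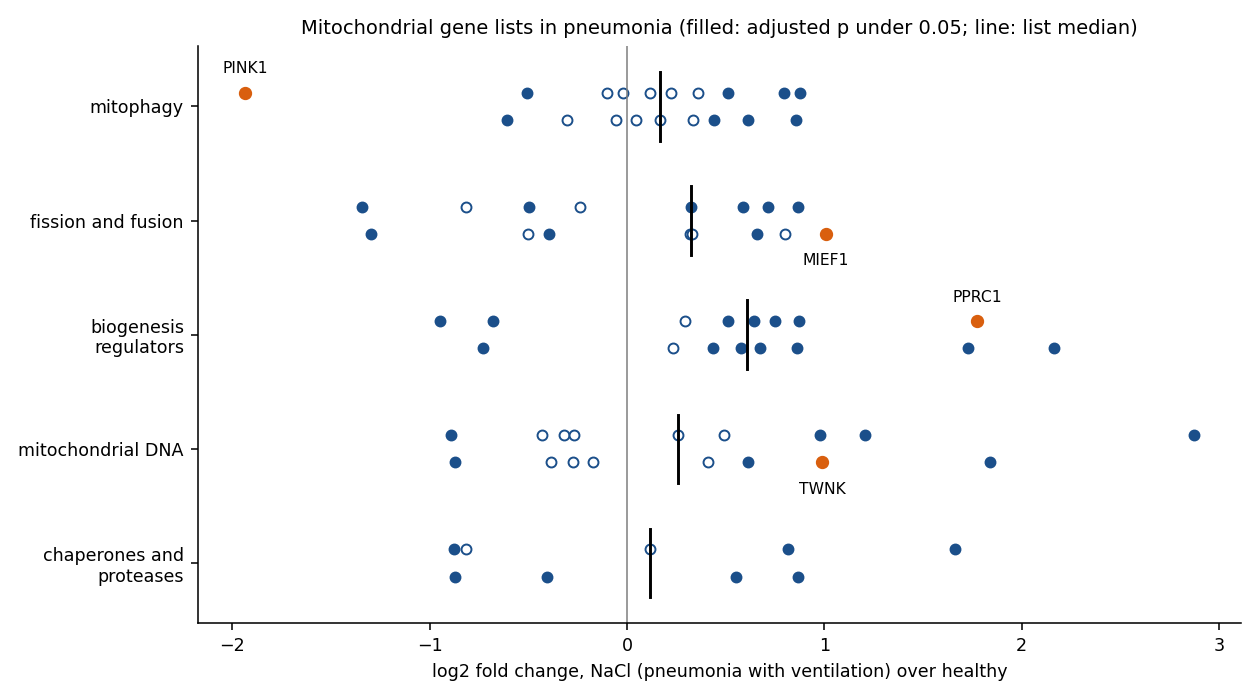
Log2 fold changes of NaCl over healthy for the tested genes of 5 mitochondrial lists, 1 point per gene; filled points were called, orange points are the 4 named genes and the line is the list median. PINK1 stands alone at the low end of mitophagy at -1.94, and PPRC1 stands with CREB1 and MYC at the high end of the biogenesis regulators.

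Against healthy lung, the treated groups kept PINK1 low and PPRC1 high. These pairs were fitted over all 35 libraries (limma on log2 CPM), and they share the healthy libraries. On the log2 scale PINK1 differed in MSC lungs by -1.76 (SE 0.29, adjusted p = 2.1e-05), in ceftaroline lungs by -1.82 (SE 0.29, adjusted p = 1.1e-05) and in ceftaroline+MSC lungs by -1.34 (SE 0.29, adjusted p = 0.0010). PPRC1 was 2.30-fold higher in MSC lungs (95% interval 1.66 to 3.18, limma adjusted p = 0.00012), 2.22-fold in ceftaroline lungs (1.61 to 3.07, adjusted p = 0.00015) and 1.87-fold in ceftaroline+MSC lungs (1.36 to 2.59, adjusted p = 0.0039). PINK1 and PPRC1 did not overlap the healthy group in any of the 3, as for 12.5% of all genes in MSC, 20.2% in ceftaroline and 9.33% in ceftaroline+MSC lungs. At backgrounds of 50.8%, 55.1% and 34.5% of genes called in the same order, 3, 2 and 3 of the 4 genes were called.

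TWNK and MIEF1 were each called against the healthy group in 1 of the 3 treated groups. TWNK was called higher in MSC lungs (log2 fold change 0.45, SE 0.18, limma adjusted p = 0.039). The call was lost on leaving out any 1 of healthy replicates 1, 2, 3, 4 and 6 or MSC replicates 2, 3, 5 and 7, with values of 0.36 to 0.45 (adjusted p = 0.052 to 0.10). In ceftaroline lungs TWNK stood at 0.32 (95% interval -0.05 to 0.68) and in ceftaroline+MSC lungs at 0.14 (-0.23 to 0.50), neither called. MIEF1 rose in ceftaroline+MSC lungs, by 0.74 (SE 0.24, adjusted p = 0.018), and was not called in MSC lungs at 0.21 (95% interval -0.28 to 0.70) or in ceftaroline lungs at 0.37 (-0.12 to 0.85). That call of MIEF1 was lost without ceftaroline+MSC replicate 1 or replicate 2 (0.65 each, limma adjusted p = 0.056 and 0.052) and with the title ending as a covariate (0.49, adjusted p = 0.21), where 1751 genes were called in place of 3567.

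MSC treatment of injured lungs was set against NaCl to ask what the cells alone change, and no gene passed: 0.0% of 9446 genes were called by limma and 0 by edgeR, with 1672 at an unadjusted p under 0.05. The 4 genes stood among the uncalled. MIEF1 had the largest difference of the 4, at -0.77 on the log2 scale (SE 0.23, unadjusted p = 0.0040, adjusted p = 0.16), or 58.8% of the NaCl level, and all 7 MSC libraries lay below the NaCl mean. The authors' deposited table lists MIEF1 at -0.75 with an adjusted p of 0.048, among its 336 genes under that threshold. TWNK differed by -0.51 (SE 0.20, adjusted p = 0.22), PPRC1 by -0.54 (SE 0.30, adjusted p = 0.36) and PINK1 by 0.20 (SE 0.31, adjusted p = 0.77). Between libraries without the title ending MIEF1 differed by -0.93, TWNK by -0.30, PPRC1 by -0.17 and PINK1 by -0.27, the last with the sign turned.

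In the MSC group PINK1 and PPRC1 were furthest out in the same 2 libraries. Replicate 6 had the highest PINK1 level (420.1 CPM) with the lowest PPRC1 (33.8), TWNK (22.3) and MIEF1 (305), and replicate 7 had the lowest PINK1 (117) with the highest PPRC1 (122.7) and TWNK (47.3). Replicate 6 also had the lowest neutrophil marker sum of its group, 2787 CPM, and the highest alveolar type II sum, 9744. Both titles carry the ending PG. The part of the cell type markers in these values was not tested.

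Ceftaroline alone was set against NaCl to show the effect of the antibiotic, again with 0.0% of genes called, of 9614 by limma and 0 by edgeR, with 1760 at an unadjusted p under 0.05. TWNK differed by -0.64 on the log2 scale (SE 0.20, unadjusted p = 0.0060, adjusted p = 0.16), PPRC1 of -0.59 (SE 0.25, adjusted p = 0.23), MIEF1 of -0.61 (SE 0.25, adjusted p = 0.22) and PINK1 of 0.14 (SE 0.30, adjusted p = 0.84). All 7 ceftaroline libraries lay below the NaCl mean for TWNK, PPRC1 and MIEF1. The authors' deposited table puts TWNK at an adjusted p of 0.051, and the fit over all 35 libraries at 0.047. Leaving out NaCl replicate 1 brought PPRC1 past the threshold (-0.79, limma adjusted p = 0.048). Against the 4 NaCl libraries without a title ending the values were -0.43 for TWNK, -0.25 for PPRC1, -0.89 for MIEF1 and -0.24 for PINK1, so that PPRC1 shrank and PINK1 turned its sign. Between MSC and ceftaroline lungs no gene was called (0.0%, 128 at an unadjusted p under 0.05, limma, and 0 by edgeR), and the 4 genes stood between -0.15 and 0.13, with intervals reaching from -0.64 to 0.64.

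Both treatments together were set against NaCl, in the fit over all 35 libraries. For MSC and ceftaroline alone that fit called 301 and 325 genes against NaCl, TWNK with ceftaroline among them (-0.64, limma adjusted p = 0.047). In ceftaroline+MSC lungs TWNK fell to 56.8% of its NaCl level (log2 fold change -0.82, SE 0.18, limma over all libraries, adjusted p = 0.0016) and PPRC1 to 56.2% (-0.83, SE 0.23, adjusted p = 0.0073), at a background of 31.1% of 10345 genes called, 17.2% higher and 13.8% lower. All 7 ceftaroline+MSC libraries lay below the NaCl mean for both genes, and the groups overlapped. With the title ending as a covariate the values were -0.76 for TWNK and -0.71 for PPRC1, still past the threshold. PINK1 stood at 0.64 (SE 0.29, adjusted p = 0.088), with all 7 libraries above the mean of the NaCl log2 values but 6 of 7 above the NaCl mean of 178 CPM, and passed without NaCl replicate 2 (0.78, adjusted p = 0.044). MIEF1 stood at -0.23 (SE 0.24, adjusted p = 0.48). In this comparison the neutrophil markers summed to 1434 to 47080 CPM in ceftaroline+MSC and 14904 to 139927 in NaCl lungs, and fibroblast markers to 1943 to 3558 in ceftaroline+MSC and 539 to 2025 in NaCl lungs. Summed endothelial markers did not overlap, with 1234 to 1924 CPM in ceftaroline+MSC and 2339 to 3741 in NaCl lungs, and CLDN5 and ERG were listed at 0. That sum mixes directions. Of its 8 markers tested in NaCl against healthy lungs, 2 rose, SELP by 5.18 and PECAM1 by 1.12 on the log2 scale. TEK, KDR, TIE1 and VWF fell there, with values of -2.19 to -0.96. The part of the marker sums in these results was not tested.

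The same comparison called several genes of the lists around the 4. Of the 19 biogenesis regulators tested, 3 rose and 7 fell: beside PPRC1, MYC fell by 1.502 (SE 0.32, adjusted p = 0.0013), SIRT1, a deacetylase that acts on PGC-1 coactivators, by 0.90 (SE 0.23, adjusted p = 0.0049) and NRF1 by 0.63 (SE 0.17, adjusted p = 0.0061), and PRKAG1 rose by 0.70 (SE 0.19, adjusted p = 0.0055). Of 17 genes of mitochondrial DNA, 4 rose and 2 fell: TWNK and SLC25A33 (-1.15, SE 0.29, adjusted p = 0.0037) fell, and MPV17, an inner-membrane protein needed for the upkeep of mitochondrial DNA, rose by 0.72 (SE 0.15, adjusted p = 0.00097). Of 19 mitophagy genes 0 rose and 4 fell, among them TBC1D15 (-0.60, SE 0.16, adjusted p = 0.0054). Of 16 genes of fission and fusion 1 rose, CHCHD6 by 0.70 (SE 0.23, adjusted p = 0.020), and of 9 chaperones and proteases 3 rose and 1, HSPA9, fell (-0.66, SE 0.20, adjusted p = 0.012). The list medians were -0.32, 0.35, -0.05, 0.07 and 0.12 in that order, against 0.05 over all genes.

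Adding MSC to ceftaroline was tested against ceftaroline alone, where 0.0403% of 9924 genes were called and none of the 4. PINK1 had a log2 fold change of 0.48 (95% interval -0.15 to 1.11), PPRC1 of -0.26 (-0.64 to 0.12), TWNK of -0.19 (-0.58 to 0.20) and MIEF1 of 0.36 (-0.22 to 0.94). Set against MSC alone, where 0.0387% of genes were called, ceftaroline+MSC lungs gave 0.42, -0.30, -0.31 and 0.52 for the 4 genes in the same order, with none called. The lists held no called gene in any of the 3 deposited treatment comparisons (limma). Their members with the lowest p were MPV17 (0.50, adjusted p = 0.20) and SLC25A33 (-0.70, adjusted p = 0.22) for MSC against NaCl beside MIEF1, MPV17 (0.51, adjusted p = 0.16) and NBR1 (0.36, adjusted p = 0.17) for ceftaroline against NaCl beside TWNK, and MUL1, a mitochondrial ubiquitin ligase (-0.35, adjusted p = 0.43), for ceftaroline+MSC against ceftaroline.

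Whether MSC act differently in ceftaroline-treated lungs was tested directly. MIEF1 stood at -0.77 for MSC against NaCl and at 0.36 for ceftaroline+MSC against ceftaroline, and the contrast of these effects over all 35 libraries was 1.13 (SE 0.34, 95% interval 0.44 to 1.82, unadjusted p = 0.0021). After adjustment over 10345 genes it did not pass (limma, adjusted p = 0.35), at a background of 0.00967% of genes called. PINK1, PPRC1 and TWNK gave contrasts of 0.28, 0.29 and 0.32 (adjusted p = 0.97, 0.95 and 0.91).

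**Figure D3:**
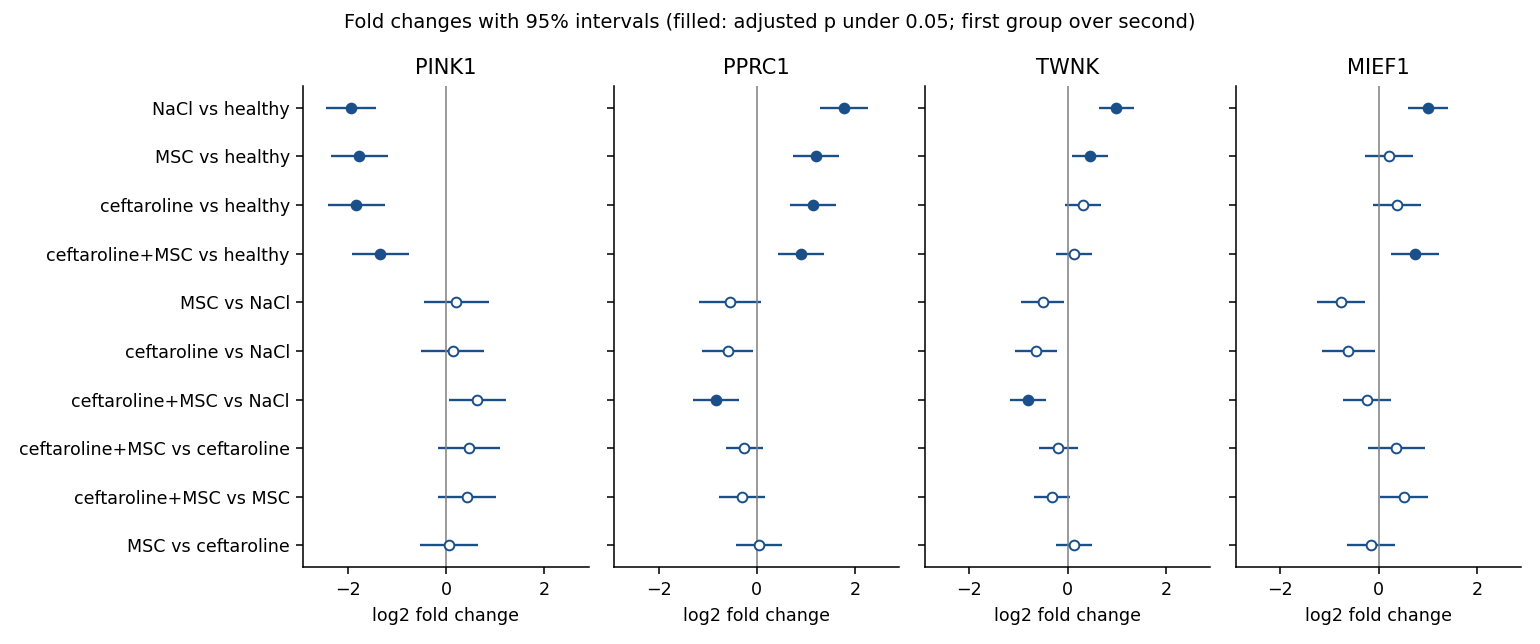
Log2 fold changes of the 4 genes (x axis) with 95% intervals in the 10 pairs of groups, the first-named group over the second; filled points were called at an adjusted p under 0.05. The 4 deposited pairs come from the fit of each table and the other 6 from the fit over 35 libraries. All calls of PINK1 are against the healthy group, and PPRC1 and TWNK are also called in ceftaroline+MSC against NaCl, at -0.83 and -0.82. In the fit over 35 libraries, not drawn for that pair, TWNK also passed in ceftaroline against NaCl (-0.64, limma adjusted p = 0.047).

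Among the 28 pneumonia libraries the levels of PINK1, PPRC1 and TWNK were related to each other. Log2 CPM of PINK1 and PPRC1 had a Pearson r of -0.67 (permutation p = 0.0001, adjusted over 6 pairs 0.0002) and a Spearman rho of -0.64 (permutation p = 0.00018, adjusted 0.00036). PINK1 and TWNK had an r of -0.73 (permutation p = 2e-05, adjusted 6e-05) and a rho of -0.70 (permutation p = 5e-05, adjusted 0.00015). PPRC1 and TWNK varied together, with an r of 0.79 (permutation p = 1e-05, the smallest that 100000 permutations can give, adjusted 6e-05) and a rho of 0.77 (permutation p = 2e-05, adjusted 0.00012). Lungs high in PPRC1 were thus mostly high in TWNK and low in PINK1. The share of all gene pairs that reach such values was not computed. With other genes PINK1 reached a rho of 0.91 and of -0.92, so strong relations are not particular to these genes. The part of the cell type markers in these relations was not tested.

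The groups differ in these levels, so the relations were computed again with each group's mean removed, which gave r of -0.63, -0.76 and 0.67 (permutation adjusted p = 0.00042, 0.00012 and 0.00012). Among the 23 libraries without a title ending they were -0.53, -0.57 and 0.72 (permutation adjusted p = 0.013, 0.013 and 0.00072). The 5 libraries with the ending are too few for a value of their own. Without the 2 libraries farthest from the median of the first gene they were -0.55, -0.69 and 0.77. Without TMM they were -0.48, -0.57 and 0.74 (permutation adjusted p = 0.021, 0.0053 and 6e-05). MIEF1 had r of -0.25 to PINK1, 0.34 to PPRC1 and 0.42 to TWNK (permutation adjusted p = 0.20, 0.091 and 0.039). That with TWNK did not pass with group means removed (0.39, adjusted p = 0.063), and without TMM it was 0.084 (permutation adjusted p = 0.70). Within groups TWNK and MIEF1 had r of 0.84 in ceftaroline+MSC, 0.89 in ceftaroline, 0.37 in MSC and -0.73 in NaCl lungs. Of these r, that in ceftaroline passed (exact permutation, adjusted p = 0.048), while the rho there, 0.79, did not (exact permutation, adjusted p = 0.19). PPRC1 and MIEF1 had an r of 0.077 without TMM. Within groups their r was 0.86 in ceftaroline+MSC, 0.53 in ceftaroline, 0.50 in MSC and -0.48 in NaCl lungs. Of these, that in ceftaroline+MSC passed (exact permutation, adjusted p = 0.049), while the rho there, 0.71, did not (exact permutation, adjusted p = 0.20). Without the 2 farthest libraries the 3 values of MIEF1 were -0.09, 0.39 and 0.51.

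Within single groups of 7 lungs these 3 relations kept their sign in all 4 pneumonia groups, with r of -0.37 to -0.91 for PINK1 and PPRC1, -0.54 to -0.89 for PINK1 and TWNK, and 0.53 to 0.91 for PPRC1 and TWNK. The lowest p on r was that of PPRC1 with TWNK in MSC lungs (exact permutation p = 0.00099, adjusted over 24 relations 0.024). Among these 3 relations, the others past the threshold on r were PINK1 with PPRC1 in MSC and ceftaroline+MSC lungs (exact permutation, adjusted p = 0.048 and 0.049) and PINK1 with TWNK in MSC lungs (0.048). On rho only PPRC1 with TWNK in MSC lungs passed among them (0.96, exact permutation, adjusted p = 0.033). PPRC1 and TWNK had a rho of 0.21 in NaCl and 0.29 in ceftaroline lungs. MSC replicates 6 and 7 held the extremes of all 3 genes in their group.

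The relation of MIEF1 to PINK1 had opposite signs in different groups. Within the 7 NaCl lungs r was 0.94 and rho 0.96 (exact permutation p = 0.0044 and 0.0028, adjusted over 24 relations 0.048 and 0.033). Within the 7 ceftaroline+MSC lungs r was -0.90 and rho -0.89 (exact permutation p = 0.012 each, adjusted 0.048 and 0.074). Ceftaroline lungs gave an r of -0.67 and MSC lungs of -0.43, neither past the threshold. In NaCl lungs the highest PINK1 levels, 217, 260.2 and 286 CPM, came with MIEF1 levels of 989, 1037 and 1224. In ceftaroline+MSC lungs the 3 libraries with the most PINK1, 324 to 482, had the least MIEF1, 436 to 528, and these are again replicates 3, 5 and 6, with alveolar type I marker sums of 9373 to 11090 CPM against 1989 to 3751 in the other 4. The NaCl libraries with the title ending were all among the 4 with the least PINK1 and were the 3 with the least MIEF1, so that ending and level move together there. Cell markers moved with them too: neutrophil sums were 14900 to 50880 CPM in those 3 libraries and 74120 to 139900 in the other 4, and red cell sums were 4003 to 7768 and 22760 to 104500. Their part in the relation was not tested. Whether the relation differs between groups was not tested.

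**Figure D4:**
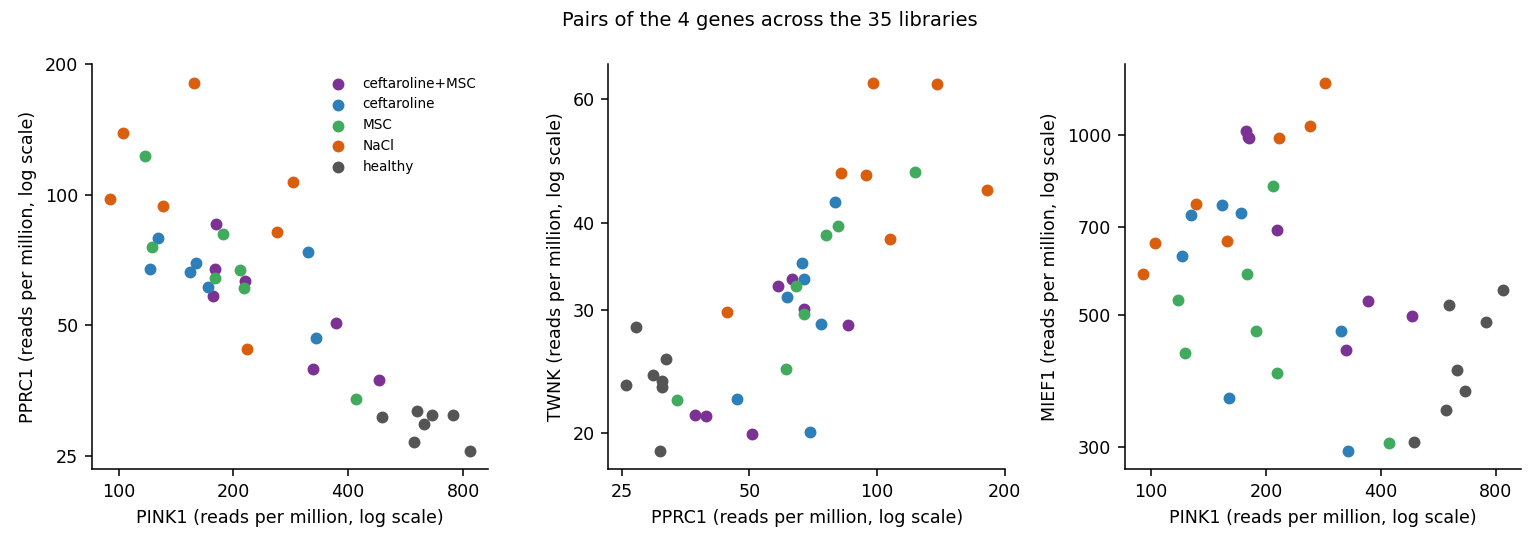
Levels in CPM (log axes) of PINK1 against PPRC1, PPRC1 against TWNK and PINK1 against MIEF1, 1 point per library, coloured by group. PPRC1 runs down as PINK1 runs up (r of -0.67 over the 28 pneumonia libraries) and up with TWNK (0.79), while PINK1 and MIEF1 run up together among NaCl lungs and in opposite directions among ceftaroline+MSC lungs.

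Genes with the most similar pattern were sought by Spearman's rho over the 28 pneumonia libraries, among 6582 genes with a mean of at least 50 reads, as a description. Nearest to PINK1 were ARF5 (0.91), PDK2, a kinase that holds back mitochondrial pyruvate oxidation (0.90), RND2 (0.90), OBSL1 (0.89) and CTSF, a lysosomal protease (0.88), and farthest was STRAP (-0.92), followed by NUDCD1 (-0.92) and NAA15 (-0.91). Nearest to PPRC1 were WDR43, a factor of ribosome assembly (0.93), EFCAB2 (0.88), HAS2, which makes hyaluronan (0.88), MDN1, also of ribosome assembly (0.88), and THBS1, thrombospondin 1 (0.88). Farthest from PPRC1 were PDE2A (-0.90), SLC25A20, the carnitine carrier of the mitochondrial inner membrane (-0.86), and RARS2, a mitochondrial arginyl-tRNA synthetase (-0.84). Nearest to TWNK were MPHOSPH10 (0.92), CCDC86 (0.92), RRS1 (0.90) and FTSJ3 (0.89), of which MPHOSPH10, RRS1 and FTSJ3 act in ribosome assembly, with TIMP1, an inhibitor of matrix proteases (0.90). Farthest from TWNK were TMEM9 (-0.91), HEMK1 (-0.90) and CLYBL, a mitochondrial enzyme (-0.90).

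Nearest to MIEF1 were NFKBIB, an inhibitor of NF-kappaB (0.88), G0S2 (0.85), DDX54 (0.85), MRPS12, a mitochondrial ribosomal protein (0.84), and TSKU (0.81), and farthest were ATE1 (-0.85), C17orf75 (-0.84) and RECQL (-0.83). The libraries share depth, cell makeup and group differences, and these values carry no test.

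The genes beside the members on the chromosome were looked up by order in RefSeq's mOryCun1.1 assembly, and none overlaps a member there. In NaCl against healthy lungs the neighbours of PINK1 both rose (limma), DDOST, a subunit of the glycosylation complex, by 1.05 (SE 0.18, adjusted p = 0.00011) and CDA, cytidine deaminase, by 1.38 (SE 0.54, adjusted p = 0.038), where PINK1 fell. LDB1 beside PPRC1 fell by 0.34 (SE 0.12, adjusted p = 0.021) and LZTS2 beside TWNK fell by 1.73 (SE 0.18, adjusted p = 1.2e-06), where those 2 members rose. The other neighbours, NOLC1, MRPL43, MIURF and ATF4, were not matched by symbol. No matched neighbour was called in the 3 deposited treatment comparisons.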

How the data were processed

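Per the labels' protocols, stranded messenger RNA libraries were sequenced from 1 end (75 bp) on a NextSeq500. TopHat2 2.1.1, DESeq2 1.24.0 and featureCounts 1.5.2 are named, without their roles, in the submitters' processing notes. No genome build is given in the sources used here. For each comparison the authors deposited 1 table, with signal (reads per gene divided by a size factor, per the file headers) for 14 libraries and DESeq2 results: a log2 fold change, its standard error, a score (the Wald statistic), a p-value and an adjusted p-value. Whole reads were recovered from the steps of the values (100% whole within a relative tolerance of 1e-06).

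Deposited comparisons were tested with limma 3.58.1 (trend) on log2(value + 1) for genes with at least 10 in at least 7 libraries, two-sided. Other pairs, the interaction and the levels used log2 CPM (TMM, prior count 2) of recovered reads over 35 libraries and 10345 genes. edgeR 4.0.16 and DESeq2 1.42.0 were alternatives. The limma and edgeR fits were also run on simulated reads in which genes vary independently. That run cannot show how the fits behave under shared cell makeup or title endings. Permutations were drawn 100000 times, two-sided, with exact tests for 7 libraries. Replicate numbers follow accession order. The p-values of group comparisons set mean differences against the spread between rabbits, and those of permutations test relations between genes across rabbits. The members, lists, naming rule (lowest p per list, highest and lowest rho per gene) and tests were chosen with earlier results of these data known. TFAM, DNM1L, OPTN, BNIP3L, NRF1 against healthy, PPARGC1B, ESRRG and PPARGC1A were named after their values were seen.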

Additional observations from a re-analysis of the deposited data

How the results depend on the processing

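In all, 50 results on the 4 genes were recomputed under 1008 alternatives, of which 976 kept direction and side of the threshold, 18 lost a call, 4 gained one and 10 changed sign. Most of the results were not called to begin with, and these count as kept where they stayed uncalled with the same sign. Most alternatives only left out 1 library, so the count kept is no measure of how firm the calls are. Libraries without a title ending gave 0.67 for TWNK in NaCl against healthy, -0.27 for PINK1 in MSC against NaCl and -0.24 for PINK1 in ceftaroline against NaCl, the last also with the ending as a covariate. MIEF1 in MSC against NaCl passed with DESeq2 (-0.75), and TWNK in ceftaroline against NaCl in the fit over 35 libraries (-0.64). TWNK in MSC against healthy was lost with upper-quartile scaling (0.38), and MIEF1 in ceftaroline+MSC against healthy with the ending as a covariate (0.49). PPRC1 in MSC against ceftaroline, not called, turned to -0.027 with that covariate. The correlation of TWNK and MIEF1 was 0.39 with group means removed and 0.084 without TMM. Leaving out 1 library at a time gave -0.79 to -0.44 for PPRC1 in ceftaroline against NaCl, 0.48 to 0.78 for PINK1 in ceftaroline+MSC against NaCl, 0.36 to 0.54 for TWNK in MSC against healthy, 0.65 to 0.85 for MIEF1 in ceftaroline+MSC against healthy, and, in MSC against ceftaroline, -0.13 to 0.20 for PINK1 and -0.090 to 0.22 for PPRC1. The cause of these changes was not tested.

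Numbers in the sample titles recur between groups, but nothing says that they pair rabbits, and in NaCl against healthy 0 of 6 same-numbered pairs deviated together with a correlation over 0.1 (5 of 7 in MSC against NaCl, 3 of 7 in ceftaroline against NaCl, 4 of 7 in ceftaroline+MSC against ceftaroline). With that number as a replicate block, NaCl against healthy had 5124 genes called in place of 5788, TWNK in MSC against healthy was lost (0.43), MIEF1 there turned to -0.13, and MIEF1 in ceftaroline+MSC against healthy was lost (0.39).

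The count of all genes called depends on the tool in the treatment comparisons: DESeq2 called 336 for MSC and 501 for ceftaroline against NaCl, and the fit over 35 libraries 301 and 325, where limma within each table called 0. For ceftaroline against NaCl, limma called 189 without NaCl replicate 1. For ceftaroline+MSC against ceftaroline, limma called 4, DESeq2 108 and edgeR 11, with 0 under the replicate block and 2 to 14 on leaving out 1 library. For ceftaroline+MSC against healthy the 3567 genes called became 1751 with the title ending as a covariate and 2246 with the replicate block.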
